A study of Mus musculus with 5 samples.

Results

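Retinoid transport and metabolism genes were followed in granulosa cells of mice with a conditional knockout of C/EBPα and C/EBPβ and in granulosa cells of wild-type mice, after an ovulatory stimulus. The 9 genes of the group are Rbp4, Stra6, Crabp1, Crabp2, Rdh10, Dhrs9, Aldh1a1, Aldh1a2 and Cyp26b1, of 18194 genes named on the array. They were selected on measured values: Rbp4 for its low intensity in the knockout at 8 h and Aldh1a1 for its high intensity in the knockout at 24 h, with the other genes added as parts of the same pathway. Both differences are therefore a description and carry no test. Members were taken as all probe sets annotated with 1 member symbol alone, which gave 9 probe sets for 8 genes. Rdh10 had a pair of probe sets and every other gene had 1. Dhrs9, a retinol dehydrogenase, had none of its own, so its expression was not analysed here.

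The knockout mice were floxed on both copies of Cebpa and Cebpb (fl/fl for each) and bore Cyp19-cre, in which aromatase gene control sequences drive the recombinase in granulosa cells. All mice received equine chorionic gonadotropin (eCG) for 48 h, which makes follicles grow, followed by hCG, human chorionic gonadotropin, in the role of the surge of luteinizing hormone. Cells were collected 4, 8 and 24 h after hCG in the knockout and 8 and 24 h after hCG in wild type, from mice aged 23 days at 4 and 8 h and 24 days at 24 h. Each group was 1 array, the labels do not say how many animals it held, and no comparison has a replicate or a p-value.

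Retinol circulates bound to a carrier protein, RBP4, and cells take it up through the receptor STRA6. Inside the cell, retinol is oxidised to retinal by dehydrogenases such as RDH10 and DHRS9, and retinal is oxidised to retinoic acid by the ALDH1A enzymes. Retinoic acid is held by the binding proteins CRABP1 and CRABP2, is broken down by the CYP26 enzymes, and acts through nuclear receptors of the RAR and RXR families. In the ovary, retinoic acid is known for its part in germ cell entry into meiosis and in follicle and theca cell function.

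A size rule took the place of a test. A gene passed at a difference of 2-fold or more between 2 arrays (1 on the log2 scale), provided its higher intensity reached a floor of 22, which is the 40th percentile of all values. Both targeted genes passed it at both times. Cebpa (1418982_at) was read at 19 in the knockout and 685 in wild type at 8 h, at least 31.1-fold lower because the knockout value lay under the floor, and 38 in the knockout against 352 in wild type at 24 h. Cebpb (1418901_at) had 1127 in the knockout against 7436 in wild type at 8 h, and at 24 h 85 in the knockout against 3976 in wild type. Of 12 granulosa markers looked for, 11 had a probe set and none of these lay under the floor on all 4 arrays of 8 and 24 h. Those 4 arrays had medians of 31 or 32. The knockout array at 4 h had a median of 54, was on another scale, and no wild-type array at 4 h was analysed here, so it is described separately.

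The promoter sequences of Rbp4 and Aldh1a1, the genes for which the group was chosen, are shown because C/EBPα and C/EBPβ, whose genes were targeted, bind DNA. They run 5′ to 3′ on the gene's strand over 300 bases, 250 before and 50 after an annotated start, from RefSeq on GRCm38.p6. Of the 9 genes, 7 had such sequences, over 12 annotated starts. Capitals mark matches to TTGCNNAA, a core of the C/EBP binding motif, on either strand. Rbp4 lies on the minus strand at chr19:38116620-38125321, and the sequence shown is chr19:38124762-38125061. Aldh1a1 lies on the plus strand at chr19:20492583-20643463, with the windows of its starts at chr19:20492333-20492632 and chr19:20601718-20602017.
Rbp4: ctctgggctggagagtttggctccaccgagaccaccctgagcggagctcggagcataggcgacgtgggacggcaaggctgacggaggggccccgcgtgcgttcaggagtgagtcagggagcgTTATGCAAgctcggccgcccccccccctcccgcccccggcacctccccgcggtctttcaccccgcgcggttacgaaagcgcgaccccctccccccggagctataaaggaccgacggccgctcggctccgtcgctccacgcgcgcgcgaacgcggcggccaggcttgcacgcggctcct
Aldh1a1, upstream start: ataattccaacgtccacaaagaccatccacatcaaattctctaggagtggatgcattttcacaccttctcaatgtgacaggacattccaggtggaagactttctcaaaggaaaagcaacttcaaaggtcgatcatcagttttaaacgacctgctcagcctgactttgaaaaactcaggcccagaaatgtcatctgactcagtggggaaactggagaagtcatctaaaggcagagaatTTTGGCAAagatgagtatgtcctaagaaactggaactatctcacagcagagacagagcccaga
Aldh1a1, downstream start: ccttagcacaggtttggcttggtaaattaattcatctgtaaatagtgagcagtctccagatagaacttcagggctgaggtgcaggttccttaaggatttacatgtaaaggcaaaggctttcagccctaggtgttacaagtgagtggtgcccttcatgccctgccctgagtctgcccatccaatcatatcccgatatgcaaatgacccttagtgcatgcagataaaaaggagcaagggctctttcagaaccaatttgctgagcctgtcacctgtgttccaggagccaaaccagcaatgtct

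The Rbp4 match began 128 bases before the annotated start, and a TATAAA began 28 bases before it. The other of the 2 annotated Rbp4 starts held no match to the core. The Aldh1a1 match began 13 bases before the upstream start, and the downstream start had none. These were the 2 windows with the core among the 12 of the group, and the 4 Stra6 windows held none. Over all 32851 promoters of the same length, 10.8% held the core. AGGTCA, the hexamer read by retinoic acid receptors, was searched on both strands too and occurred in 1 of the 12 windows, that of Dhrs9, against 16.3% of all promoters. A match is a run of letters and no measurement of binding.

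Rbp4, the carrier of retinol, was high on 1 array, that of wild type at 8 h. Its probe set (1426225_at) read 41 in the knockout against 380 in wild type at 8 h, and at 24 h 26 in the knockout against 56 in wild type. The genotype difference at 8 h was -3.21 on the log2 scale, 9.27-fold lower in the knockout and rank 8 from the lowest among 12924 genes above the floor. At 24 h it was -1.11, 2.15-fold lower in the knockout, just inside the size rule and near the floor. With 16 added to every intensity before the log it was -0.78, short of the rule. The intensities ran from lowest to highest as knockout at 24 h, knockout at 8 h, wild type at 24 h and wild type at 8 h.

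The time course of Rbp4 was steeper in wild type. From 8 h to 24 h its intensity was 6.79-fold lower in wild type, a log2 difference of -2.76. In the knockout the same difference was -0.66, 1.58-fold and short of the size rule. The knockout intensity was already near the floor at 8 h, at 41. A fall as large as that in wild type would have ended under the floor and could not have been read. The change in the knockout minus that in wild type was 2.11. These comparisons share the same 4 arrays, so a low or high value on 1 array enters more than 1 of them.

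Stra6, the cell surface receptor through which retinol from RBP4 enters cells, went the other way in time. Its intensity (1422723_at) was 44 in the knockout against 35 in wild type at 8 h, and at 24 h 56 in the knockout against 107 in wild type. The wild-type array at 24 h was the highest of the 4, and the other 3 lay within 35 to 56. From 8 h to 24 h Stra6 was 3.06-fold higher in wild type (1.61 on the log2 scale) and differed by 0.35 in the knockout. The genotype difference was 0.33 at 8 h and -0.93 at 24 h, when the knockout was 1.91-fold lower, just outside the rule. The change in the knockout minus that in wild type was -1.26.

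**Figure D1:**
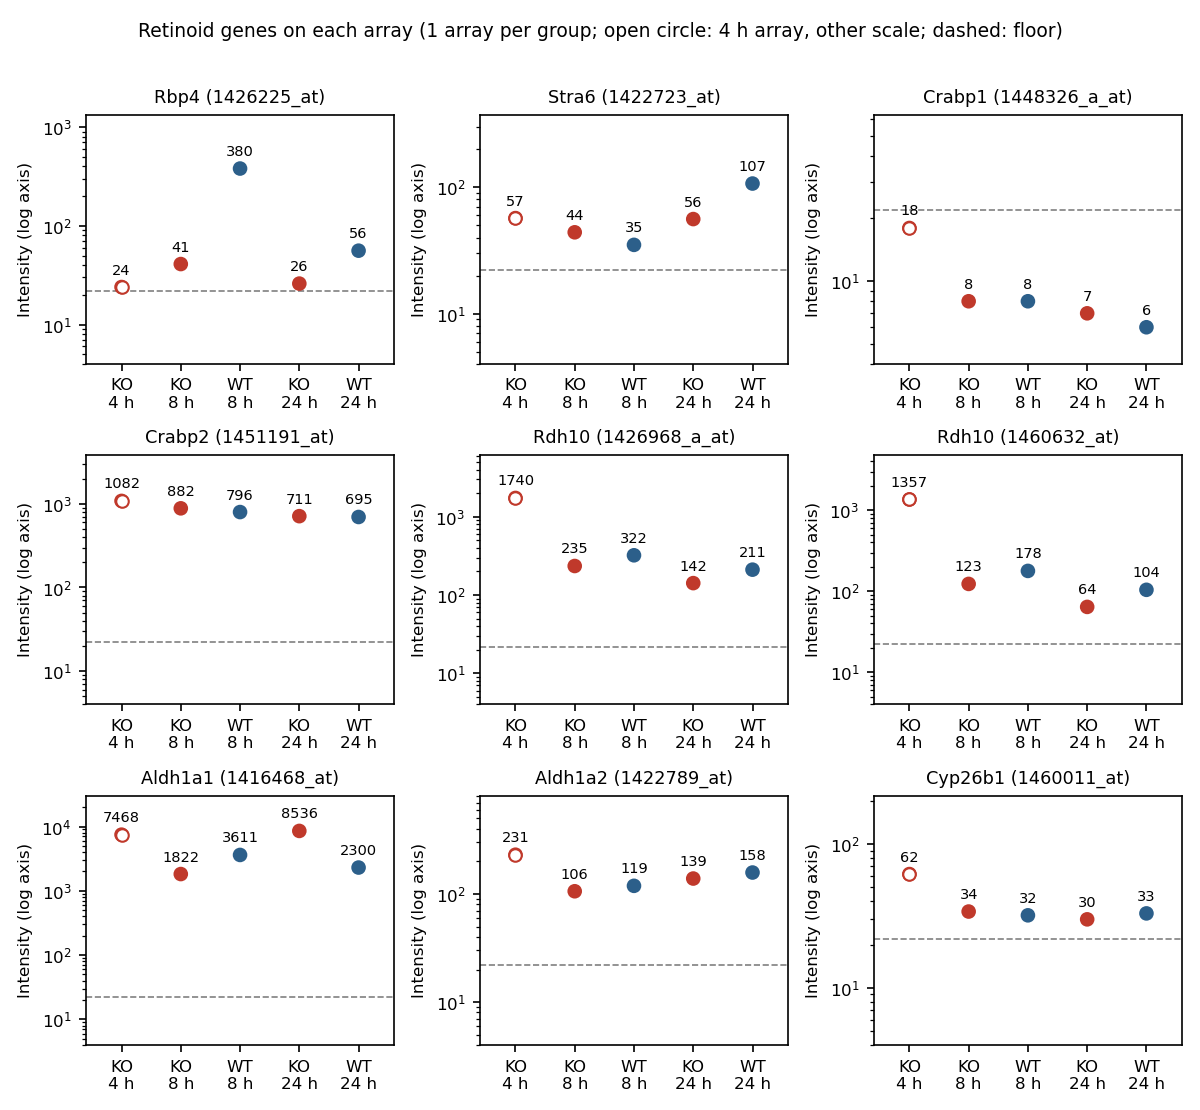
Intensity of each of the 9 probe sets of the retinoid genes on each array (log axis), knockout (KO) in red and wild type (WT) in blue, 1 array per point and no error. The open circle is the 4 h knockout array, which is on another scale, and the dashed line is the floor of 22. Rbp4 stands out at 380 in wild type at 8 h, Stra6 at 107 in wild type at 24 h and Aldh1a1 at 8536 in the knockout at 24 h, while Crabp1 stays under the floor.

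Rdh10, which makes retinal from retinol, was lower in the knockout at both times by less than the size rule asks. Its probe set of higher intensity (1426968_a_at) had 235 in the knockout against 322 in wild type at 8 h, and at 24 h 142 in the knockout against 211 in wild type. The other probe set (1460632_at) had 123 in the knockout against 178 in wild type at 8 h, and at 24 h 64 in the knockout against 104 in wild type. The genotype differences were -0.45 and -0.53 on the log2 scale at 8 h, and -0.57 and -0.70 at 24 h. From 8 h to 24 h they were -0.73 and -0.94 in the knockout, against -0.61 and -0.78 in wild type. Both probe sets thus gave the same order of the 4 arrays, with wild type at 8 h highest and the knockout at 24 h lowest. Among genes with several probe sets above the floor, the genotype difference at 8 h had a between-probe-set standard deviation of 0.28 (5844 genes). At 24 h it was 0.40 (5877 genes). This is a spread between probe sets on the same arrays and holds no spread between arrays or animals.

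Aldh1a1, a retinaldehyde dehydrogenase that makes retinoic acid, differed between the genotypes in opposite directions at 8 h and 24 h. Its intensity (1416468_at) was 1822 in the knockout against 3611 in wild type at 8 h, and at 24 h 8536 in the knockout against 2300 in wild type. At 8 h the difference was -0.99, 1.98-fold lower in the knockout and just outside the size rule, and at 24 h it was 1.89, 3.71-fold higher in the knockout. The knockout at 8 h was the lowest of the 4 arrays and the knockout at 24 h the highest.

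From 8 h to 24 h it was 4.68-fold higher in the knockout, a log2 difference of 2.23, and differed by -0.65 in wild type. The change in the knockout minus that in wild type was 2.88, rank 14 from the highest among 13316 genes. Aldh1a1 was chosen for its knockout value at 24 h, which enters this difference, so the rank is a description. Its relative Aldh1a2, which serves the same step, showed no such pattern, at 106 in the knockout and 119 in wild type at 8 h, and at 24 h 139 in the knockout against 158 in wild type. The Aldh1a2 genotype differences were -0.17 and -0.18, and its changes from 8 h to 24 h were 0.39 in the knockout and 0.41 in wild type.

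Binding and breakdown genes varied little. Crabp2, which carries retinoic acid to its receptors (1451191_at), had 882 in the knockout against 796 in wild type at 8 h, and at 24 h 711 in the knockout against 695 in wild type. Cyp26b1, a retinoic acid hydroxylase (1460011_at), had 34 in the knockout against 32 in wild type at 8 h, and at 24 h 30 in the knockout against 33 in wild type, not far above the floor. Their genotype differences lay between -0.14 and 0.15 on the log2 scale. Crabp1, the other retinoic acid binding protein (1448326_a_at), had 8 in the knockout against 8 in wild type at 8 h, and at 24 h 7 in the knockout against 6 in wild type. All 4 values lay under the floor, so it was left out of every comparison and no fold is given.

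Counted by gene, 7 of the 9 reached the floor in each comparison. In the knockout against wild type at 8 h, 1 was lower (Rbp4) and 0 were higher, while 4.05% of all genes above the floor were lower and 1.58% higher. At 24 h 1 was lower (Rbp4) and 1 higher (Aldh1a1), beside 3.92% of all genes lower and 3.13% higher. The median difference of the 7 genes was -0.17 at 8 h and -0.18 at 24 h, against -0.0096 and 0.054 over all genes. Rbp4 at 8 h and Aldh1a1 at 24 h chose the group, so nothing is read from these counts.

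From 8 h to 24 h in the knockout, 1 of the 7 genes was higher (Aldh1a1) and 0 were lower, and 6.85% of all genes were higher and 5.26% lower. In wild type 1 was higher (Stra6) and 1 lower (Rbp4), beside 5.55% of all genes higher and 6.45% lower. In the difference of the time changes, knockout minus wild type, 2 were above (Rbp4 and Aldh1a1) and 1 below (Stra6), against 5.04% and 3.09% of all genes. Values that chose Rbp4 and Aldh1a1 enter these counts too, so nothing is read from them.

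**Figure D2:**
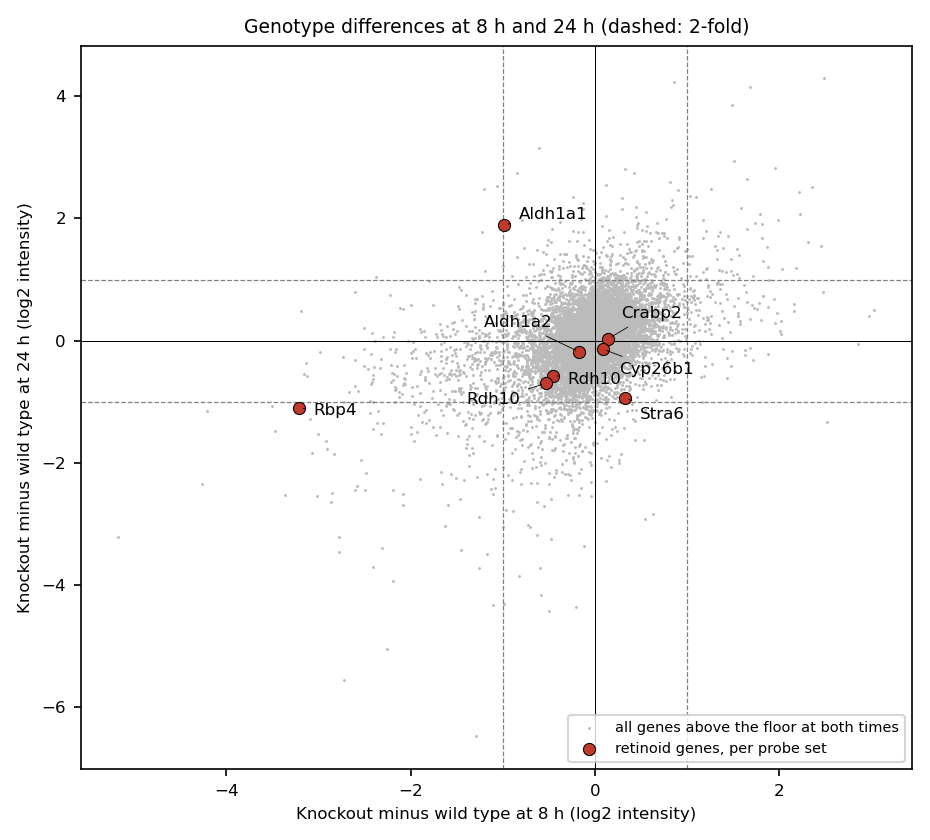
Knockout minus wild type at 8 h (x axis) against the same difference at 24 h (y axis), both in log2 intensity, for 12660 genes above the floor at both times (grey) and for the retinoid probe sets (red). Dashed lines mark 2-fold. Rbp4 lies at -3.21 and -1.11, Aldh1a1 at -0.99 and 1.89, and Stra6 at 0.33 and -0.93, with the others nearer the centre.

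Markers of other ovarian cell types differed between the same arrays as Rbp4. RNA came from whole preparations, in which fewer cells of a type and less RNA per cell cannot be told apart. At 8 h, 14 of 15 stroma and smooth muscle markers were lower in the knockout and 0 higher, with a median of -2.19. Their summed intensity was 6591 in the knockout against 29580 in wild type at 8 h, and at 24 h 13212 in the knockout against 19546 in wild type. Of 16 endothelial markers above the floor, 14 were lower and 0 higher at 8 h, with a summed intensity of 1358 in the knockout and 3195 in wild type. Vwf of the 18 endothelial markers measured lay under the floor on all 4 arrays. Of 7 theca markers, 4 were lower at 8 h, namely Cyp17a1, the androgen synthesis enzyme, Tcf21, Fbln5 and Enpep, with a summed intensity of 1986 in the knockout and 3816 in wild type.

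At 24 h these lists differed less. Of stroma and smooth muscle markers 3 of 14 were lower, with a median of -0.44. Of endothelial markers 3 of 16 were lower and 1 (Ramp2) higher, with a median of -0.70, and 14 lay below wild type and 2 above. Their summed intensity ran the other way, at 2154 in the knockout and 1893 in wild type, a sum that weighs genes of high intensity most. Of theca markers 0 of 6 passed either way, with a median of 0.14 and a summed intensity of 2013 in the knockout and 1707 in wild type. The median of the granulosa list was 0.13 at 8 h, where 1 of 11 genes (Fst) was lower, and 0.18 at 24 h, where 0 of 11 passed. Luteal markers were lower in 3 of 8 at 8 h and 4 of 8 at 24 h, with medians of -0.76 and -1.30. From 8 h to 24 h, 5 of 7 theca markers and 7 of 15 stroma and smooth muscle markers were lower in wild type. The share over all genes was 6.45%. Their medians were -2.01 and -0.70 in wild type, against 0 and 0.69 in the knockout. Medians of the difference of the time changes were 2.01 for theca and 1.75 for stroma and smooth muscle. They were 0.84 for endothelium and 0.18 for granulosa markers. The part of these cell types in the values and time changes of Rbp4 and Aldh1a1 was not tested.

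At 8 h, 4 of 17 leukocyte markers were lower and 1 higher, and at 24 h 4 of 16 were lower. Of 10 oocyte markers 0 passed at either time, with medians of -0.19 at 8 h and 0.36 at 24 h. Of 9 surface epithelium markers, the keratins Krt8 and Krt18 were higher at 8 h and Krt7 was lower at 24 h. Alas2, of 2 measurable erythroid genes, passed as lower at 8 h, and 0 passed at 24 h. The shares of all genes at 8 h and 24 h given above apply to these counts too.

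**Figure D3:**
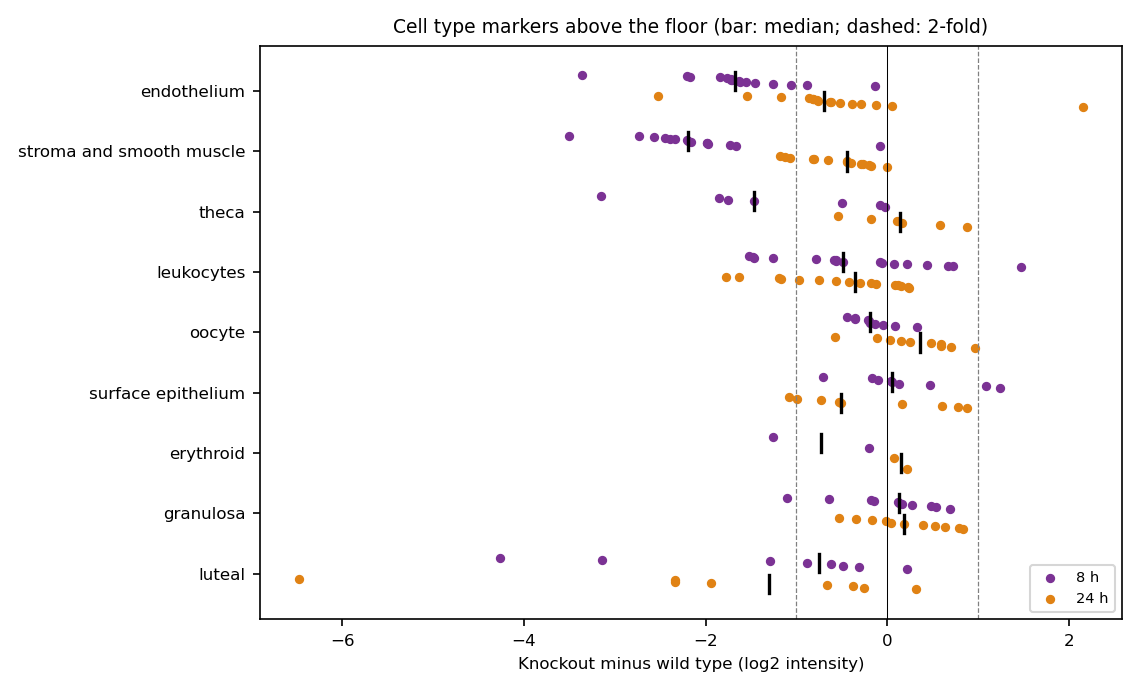
Knockout minus wild type in log2 intensity (x axis) for each marker gene above the floor, by cell type (rows), at 8 h (purple) and 24 h (orange), with the list median as a black bar and 2-fold as dashed lines. Stroma and smooth muscle markers centre on -2.19 at 8 h and on -0.44 at 24 h, and granulosa markers on 0.13 and 0.18.

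The genes whose profile over the 4 arrays came nearest to that of Rbp4 were Vgll3, a transcription cofactor, Fgl2, a fibrinogen-like protein, Nfil3, a bZIP repressor, and the tight junction claudins Cldn2 and Cldn1. Nearness was the root mean square difference of log2 profiles less their own means, among 3462 genes that reached the floor and ranged over at least 2-fold. Vgll3 lay at 0.19, with intensities of 31 in the knockout and 265 in wild type at 8 h, and at 24 h 14 in the knockout against 34 in wild type. Fgl2 lay at 0.28, with 170 in the knockout and 1121 in wild type at 8 h, and at 24 h 70 in the knockout against 141 in wild type. Nfil3 (0.32), Cldn2 (0.33) and Cldn1 (0.36) followed. Cldn2 reached the floor only in wild type at 8 h, at 96, and Cldn1 lay under the floor on both knockout arrays. All 5 were highest in wild type at 8 h, which follows from their choice by profile. None of the 5 is in the marker lists, which are short, so nothing is read from that.

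Nearest to Aldh1a1 were Spink4, Fbxo32, a ubiquitin ligase of muscle wasting, Snn, Scn3a, a sodium channel, and Col8a1, a collagen. Fbxo32 lay at 0.22, with 72 in the knockout and 106 in wild type at 8 h, and at 24 h 257 in the knockout against 94 in wild type. Col8a1 lay at 0.25, with 44 in the knockout and 63 in wild type at 8 h, and at 24 h 193 in the knockout against 65 in wild type. All 5 were highest in the knockout at 24 h and lay below wild type at 8 h, by 0.46 to 0.56 on the log2 scale. This pattern is what they were chosen for. Scn3a had 8 in the knockout and 11 in wild type at 8 h, both under the floor, and at 24 h 27 in the knockout against 7 in wild type. Spink4 was near the floor at 8 h, at 24 in the knockout and 34 in wild type. With 4 arrays to compare, many genes can come near a profile, and these names are a description.

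**Figure D4:**
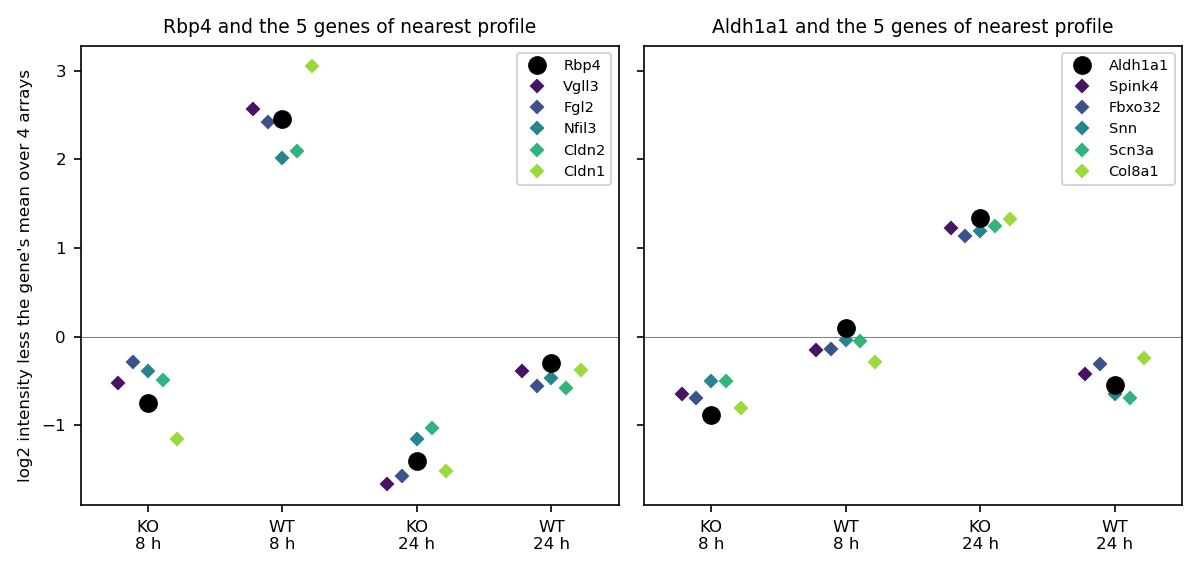
Log2 intensity less the gene's own mean over 4 arrays (y axis) on each array (x axis, KO knockout, WT wild type) for Rbp4 (left, black) and Aldh1a1 (right, black), each with its 5 nearest genes (coloured diamonds, set side by side). Wild type at 8 h is the high point on the left and the knockout at 24 h on the right.

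Beyond the 9 genes, 52 further genes of retinoid handling and response were listed, of which 49 had a probe set of their own. Of the 27 above the floor at 8 h, 2 were lower in the knockout and 0 were higher, and the median was -0.24, against -0.0096 over all genes. Of the 30 above the floor at 24 h, 3 were lower and 1 higher, and the median was -0.12, against 0.054 over all genes. The list was drawn up with earlier results of these arrays known, and the shares of all genes given above apply to these counts too.

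At 8 h the lower genes were Adh1 and Tgm2. Adh1, a class I alcohol dehydrogenase that can oxidise retinol (1416225_at), had 355 in the knockout and 1924 in wild type at 8 h, 5.42-fold lower, and 701 in the knockout and 1385 in wild type at 24 h, 1.98-fold lower. Tgm2, a transglutaminase known to respond to retinoic acid (1433428_x_at), had 117 in the knockout and 486 in wild type at 8 h, 4.15-fold lower, and 225 in the knockout and 348 in wild type at 24 h. Of its 6 probe sets, 5 reached the floor and all of these were lower at 8 h by at least the rule. Both genes were lowest of the 4 arrays in the knockout at 8 h. So were, among others, Aldh1a1, Dhrs3, Retsat and the summed stroma and endothelial markers, and a link between them was not tested.

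At 24 h the lower genes were Retsat, Rdh9 and Adh7. Retsat, which saturates retinol (1424715_at), had 55 in the knockout against 83 in wild type at 8 h, and at 24 h 137 in the knockout against 439 in wild type, 3.20-fold lower. Its other probe set had 94 in the knockout and 187 in wild type at 24 h, a difference of -0.99 and just outside the rule. Retsat was higher at 24 h than at 8 h in both genotypes, 2.49-fold in the knockout and 5.29-fold in wild type. On the other probe set these were 4.27-fold in the knockout and 6.45-fold in wild type. The change in the knockout minus that in wild type was -1.09, and on the other probe set -0.59, short of the rule.

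Rdh9, a short-chain retinol dehydrogenase (1427963_s_at, a probe set that may read related genes), had 15 in the knockout and 14 in wild type at 8 h, both under the floor, and 48 in the knockout and 135 in wild type at 24 h. Against the floor, it was at least 2.18-fold higher at 24 h than at 8 h in the knockout and at least 6.14-fold in wild type. Adh7, a class IV alcohol dehydrogenase active on retinol (1450110_at), had 210 in the knockout against 247 in wild type at 8 h, and at 24 h 38 in the knockout against 105 in wild type. It was 5.53-fold lower at 24 h than at 8 h in the knockout and 2.35-fold lower in wild type.

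The gene higher in the knockout at 24 h was Aldh1a7, a close relative of Aldh1a1 (1418601_at). It had 128 in the knockout against 147 in wild type at 8 h, and at 24 h 320 in the knockout against 124 in wild type, 2.58-fold higher. Like Aldh1a1, it was highest of the 4 arrays in the knockout at 24 h. Whether the Aldh1a7 probe set also reads Aldh1a1 RNA was not tested. Dhrs3, which returns retinal to retinol (1448390_a_at), had 131 in the knockout against 231 in wild type at 8 h, and at 24 h 338 in the knockout against 277 in wild type. It was 2.58-fold higher at 24 h than at 8 h in the knockout and differed by 0.26 on the log2 scale in wild type. Dhrs4, another dehydrogenase of this family, was 2.01-fold higher at 24 h than at 8 h in the knockout, and 0.90 apart on its other probe set, short of the rule.

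Counted over the list, 5 of 29 genes were higher and 1 lower at 24 h than at 8 h in the knockout, beside 6.85% and 5.26% of all genes. In wild type 2 of 30 were higher and 1 lower, beside 5.55% and 6.45% of all genes. In the difference of the time changes, knockout minus wild type, 4 of 31 were above and 3 below, beside 5.04% and 3.09% of all genes. Those above were Adh1 (1.46), Aldh1a7 (1.57), Tgm2 (1.43) and Dhrs3 (1.11), and those below were Rdh9 (-1.59), Adh7 (-1.23) and Retsat (-1.09). Retsat passed on 1 of its 2 probe sets and Tgm2 on 4 of the 5 above the floor, the other one of Tgm2 standing at 0.83.

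Of the nuclear receptors, 5 of 7 reached the floor at 8 h and 24 h and 0 passed the rule in any comparison. Rara had 38 in the knockout and 57 in wild type at 8 h, a difference of -0.58, and Rxra had 128 in the knockout and 88 in wild type at 24 h, a difference of 0.54. Rarb, a receptor gene whose own transcription responds to retinoic acid, and Rxrg lay under the floor on all 4 arrays. So did Cyp26a1, a retinoic acid hydroxylase also known as a response gene, at 11 in the knockout and 12 in wild type at 8 h, and at 24 h 13 in the knockout against 16 in wild type. In all, 18 of the 49 genes lay under the floor on all 4 arrays, among them the storage enzyme Lrat and the cytosolic carriers Rbp2 and Rbp7. At this signal a difference in these genes was not detectable.

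**Figure D5:**
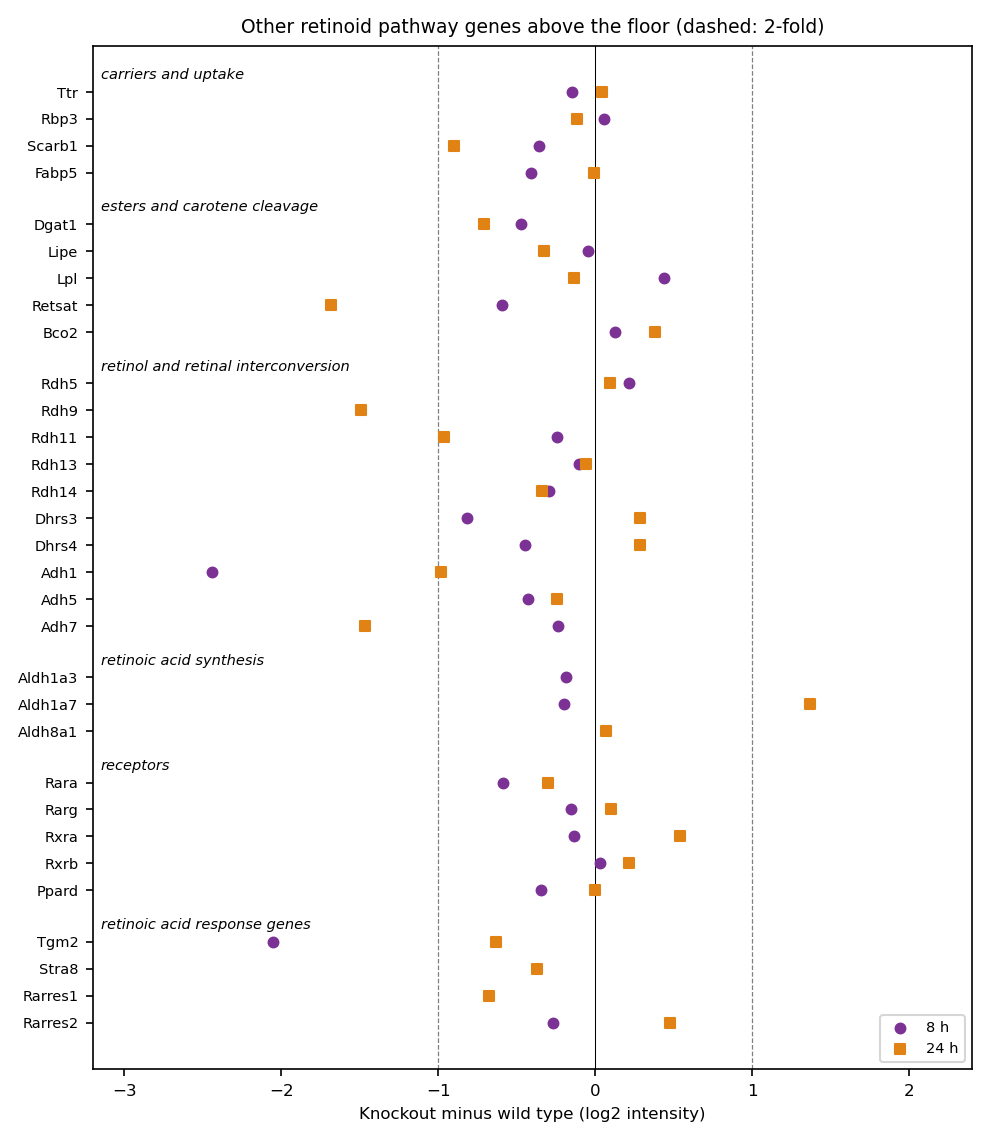
Knockout minus wild type in log2 intensity (x axis) for each further retinoid pathway gene above the floor (rows, by role) at 8 h (purple circles) and 24 h (orange squares), 1 array per group, with 2-fold as dashed lines. Adh1 (-2.44) and Tgm2 (-2.05) lie lowest at 8 h, Retsat (-1.68) at 24 h, and Aldh1a7 (1.37) is the gene above 2-fold at 24 h.

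The knockout array at 4 h was read by ranks within each array, as the percentile of a probe set among all 45101. Rdh10 stood at the 93.3rd percentile at 4 h, the 78.9th at 8 h and the 72.0th at 24 h in the knockout, and at the 82.6th at 8 h and the 77.5th at 24 h in wild type. Its other probe set stood at the 91.6th percentile at 4 h, the 70.1st at 8 h and the 61.0th at 24 h in the knockout. Of the 5 arrays the one at 4 h was thus the highest for both probe sets of Rdh10. The difference at 8 h from 4 h was -2.06 and -2.66 after quantile normalization of the 5 arrays, and -2.09 and -2.66 after centring each on its median.

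Aldh1a1 stood at the 98.7th percentile at 4 h, the 96.6th at 8 h and the 99.6th at 24 h in the knockout, so that its low point was at 8 h. The difference at 8 h from 4 h was -1.17 after quantile normalization. Rbp4 stood at the 29.6th percentile at 4 h, the 54.5th at 8 h and the 46.4th at 24 h in the knockout, and at the 84.6th at 8 h and the 59.3rd at 24 h in wild type. Its difference at 8 h from 4 h in the knockout was 1.65 after quantile normalization, with intensities near the floor. Aldh1a2, Crabp2, Cyp26b1 and Stra6 differed by -0.45 to 0.53 on that scale. Over all genes, the standard deviation of that difference was 1.07, against 0.50 for the genotype difference at 8 h. Time and the different scale of that array cannot be told apart, and a genotype comparison at 4 h was not made.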

How the data were processed

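The series holds 5 Affymetrix 3′ expression arrays, 1 per group, with 45101 probe sets. The authors' deposited values are intensities, and per the submitters' processing notes affy and RMA were used, with no version. These are whole linear numbers, whose log2 was computed here, and steps are coarse at low intensity. Per the labels' protocols, biotin-labelled cRNA was made from total RNA. The genome build and whether all arrays were normalized together are not given in the sources used here.

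Gene names came from the platform's annotation, where 932 probe sets had several symbols and 9211 none, and symbols were updated by Entrez identifier from RefSeq on GRCm38.p6, with 34754 of 34958 probe sets of 1 symbol matched. A gene was read from its probe set of highest mean log2 value. The size rule is given in the text. Cell type markers and pathway genes came from lists, and named genes are all members, Cebpa and Cebpb, the pathway genes past the rule, the 5 nearest profiles of Rbp4 and of Aldh1a1, and marker genes at the ends of their lists. Further receptor, Cyp26a1 and under-floor genes were named after their values were seen. The members, lists and rules were chosen with earlier results of these data known. The code of the rule was run on simulated arrays of small noise, with changes larger than 2-fold in genes well above the floor. That run cannot show how the rule does near its cutoff, near the floor or with the spread of real arrays. With 1 array per group, the number of arrays limits the precision and no test was made. Alternatives in scaling, probe set choice, floor, fold and pseudocount were computed with pandas 2.3.3 and numpy 2.4.6 in Python 3.11.15.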

Additional observations from a re-analysis of the deposited data

Results flagged for a closer look

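Aldh1a1 and Stra6 had genotype differences of opposite sign at 8 h and 24 h. That of Aldh1a1 at 24 h passed the size rule. Those of Aldh1a1 at 8 h and of Stra6 at both times fell short of it. For Aldh1a1, knockout minus wild type at 24 h less the same at 8 h was 2.88 on the log2 scale, with the knockout below wild type at 8 h and above it at 24 h. For Stra6 it was -1.26, with the knockout above wild type at 8 h and below it at 24 h. Each rests on 4 single arrays, and the difference between the times was not tested. Aldh1a1 was chosen for its high intensity in the knockout at 24 h, which enters its difference.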

How the results depend on the processing

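No paired analysis was possible because each group has 1 array and no result comes from a test. Of 224 counts under the alternatives, 199 stayed within 1.5 times the reported count and 25 did not, and of 456 values of single genes 0 changed sign where called, 6 fell short of the rule and 8 newly passed it. At a 1.5-fold threshold, 2 members passed as lower in the knockout at 8 h, 2 did at 24 h, 3 were lower at 24 h than at 8 h in wild type and 2 in the knockout. Of the pathway genes, 5 then passed as lower in the knockout at 8 h, 9 did at 24 h, 2 lower and 5 higher with time in wild type, 8 higher with time in the knockout, and 5 below and 7 above in the difference of the changes. At 3-fold, 0 members passed as lower in the knockout at 24 h and 0 as below in the difference of the changes. Of the pathway genes, 1 was then lower and 0 higher at 24 h, 0 lower with time in wild type, 1 higher with time in the knockout, and 1 below and 0 above in the difference of the changes. Rbp4 at 24 h, the 1 member lower there, was lost (0 lower) with the floor at the 60th percentile, an intensity of 66, and with a pseudocount of 16. With arrays centred on their medians, 5 pathway genes were lower in the knockout at 24 h, Adh1 and Rdh11 being added at differences of -0.98 and -0.96 before centring. Without probe sets whose names mark shared sequence, 2 pathway genes were lower with time in wild type, Aldh1a3 being added. From 4 h to 8 h in the knockout, 0 members were higher as deposited and 1, Rbp4, after either scaling of the 5 arrays. Signal over the floor limits Rbp4 at 24 h, Cyp26b1 and Crabp1.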
